A study of Danio rerio with 4 samples.

Results

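FinTRIM genes are a family of the tripartite motif (TRIM) genes that expanded in fish. They were taken here as every gene whose name in the deposited table is ftr followed by a digit, which gave 37 of the 25769 genes. Each was followed through 4 SLAM-Seq libraries of whole AB/TL zebrafish embryos to ask how many members were silent, how many were stored in the egg and how many were newly transcribed. All embryos, at both stages, were injected at the one-cell stage with 4sU, a uridine analog that marks RNA made after the injection, and RNA was collected at 4.8 hpf (30% epiboly) and at 1 hpf (4-cell), with 25 embryos pooled per sample. The sample labels instead give 6 hpf for the later stage and 20 mM 4sU where the methods give 50 mM, and the stage names of the methods are used throughout. At each stage there was 1 polyA+ library, sequenced on a NextSeq, and 1 ribo-depleted library, sequenced on a NovaSeq, so that library type and sequencing platform cannot be told apart. The samples are pools of whole embryos, in which fewer cells of a type and less RNA per cell cannot be told apart.

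TRIM proteins carry a RING finger, which gives E3 ubiquitin ligase activity, followed by B-box and coiled-coil domains, and many end in a B30.2 (PRY/SPRY) domain that can recognise a partner protein. The finTRIMs were first found as genes induced by virus in leukocytes of rainbow trout, and zebrafish ftr83 has been linked to the type I interferon pathway. Early embryos run on RNA that the mother placed in the egg until the zygotic genome is switched on and the stored RNA is cleared. In SLAM-Seq, labeled residues are converted chemically so that the sequencer reads C where the RNA held T. The new-to-total RNA ratio (NTR), estimated per gene and library by GRAND-SLAM, is the fraction of a gene's RNA that is labeled, and labeled reads are the read count multiplied by the NTR.

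The 4.8 hpf libraries held 10212400 (polyA+) and 17814709 (ribo-depleted) reads, and the 1 hpf libraries held 9058807 and 22521675 reads. Where a stage has a pair of values, they are those of the polyA+ library and then of the ribo-depleted library. Over all genes, 16.4% and 18.7% of the RNA was labeled at 4.8 hpf, against 0.188% and 1.40% at 1 hpf. Of the stage markers named in the study, the 6 zygotic genes were all higher at 4.8 hpf and 3 of the 4 maternal genes were lower in the edgeR test described below, with h1m the maternal gene that did not pass.

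Of the 37 FinTRIM genes, 26 had at least 10 reads in at least 1 library, which is 70.3% of these members, beside 70.9% of all genes. The shares given here depend on which genes the deposited table names. Every member had reads in at least 1 library, so an ftr gene without any may be missing from the 37. An identifier list names 32 more ftr genes, of which 3 reached this minimum, so that with them 29 of 69 did. Of those 32, 1 was newly made and 0 were stored in both library types, as defined next. At least 10 labeled reads at 4.8 hpf in both library types, the minimum taken here for a newly made gene, were found for 10 members (27.0%, beside 31.4% of all genes). The maternal marker h1m, for which the study recovered only pre-existing copies, also met this minimum. Its NTR was 6.44% and 20.4% at 4.8 hpf, and 12.3% in the ribo-depleted library at 1 hpf, so the minimum can also be met at a low NTR. Stored RNA, taken as at least 10 unlabeled reads at 1 hpf in both library types, was found for 9 members (24.3%, beside 50.4% of all genes). The share stored was lower than that of all genes, also at minimums of 5 and 25 reads and in each library type alone. The other shares depended on the minimum, since with at least 50 reads 37.8% of members were detected, beside 55.2% of all genes, and with 5 labeled reads 43.2% were newly made, beside 38.1%. These shares are descriptions without a test. By class, 5 members were newly made and not stored (ftr82, ftr90, ftr36, ftr76 and ftr51), 5 were both stored and newly made (ftr83, ftr86, ftr67, ftr24 and ftr19), 4 were stored and not newly made (ftr81, ftr97.1, ftr99 and ftr79), 12 had reads but met neither minimum in both library types, and 11 were silent at this depth.

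**Figure D1:**
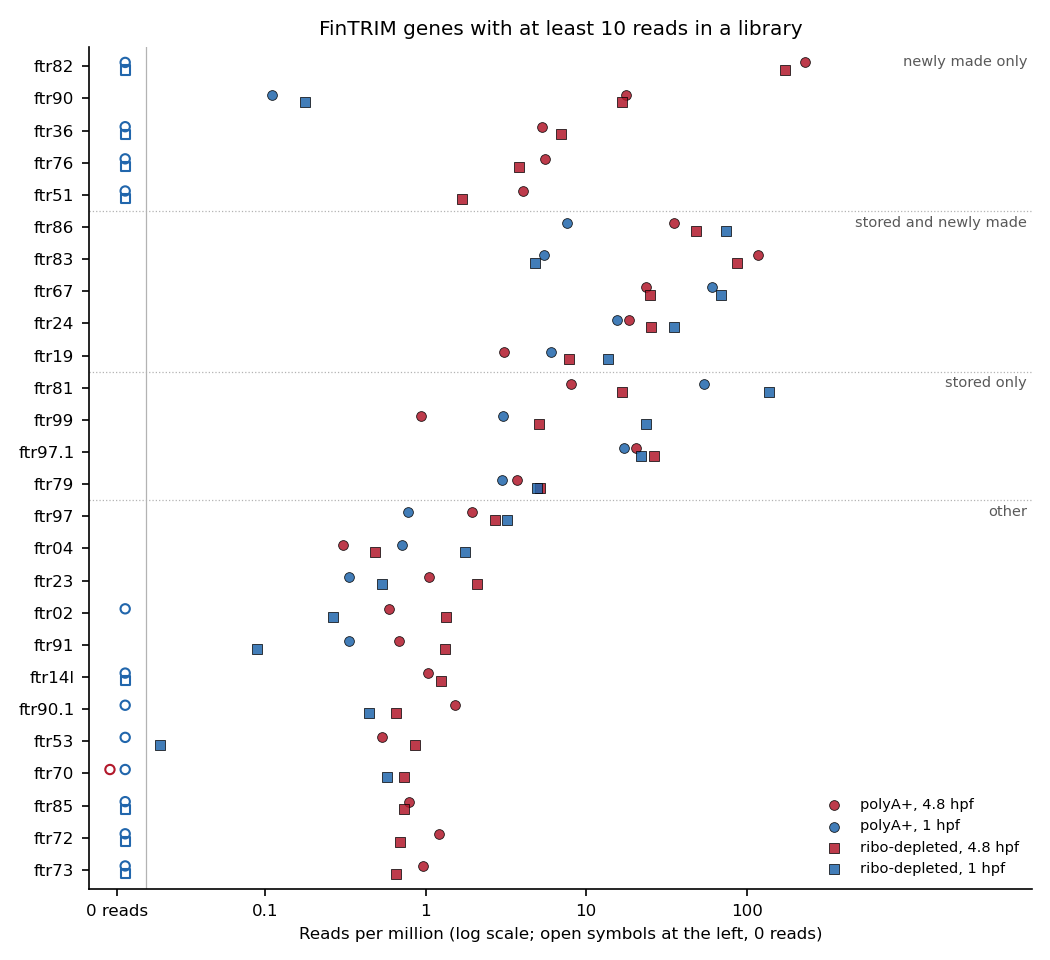
Read level (CPM, the read count scaled to the library total, log scale) of the 26 FinTRIM genes with at least 10 reads in a library, grouped by class, in the polyA+ (circles) and ribo-depleted (squares) libraries at 4.8 hpf (red) and 1 hpf (blue), with open symbols for 0 reads. ftr82 sits at 232 and 173 at 4.8 hpf with no read at 1 hpf, while ftr81 sits at 8.08 and 16.8 at 4.8 hpf, below its 54.5 and 139 at 1 hpf.

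As a family, the members summed to 509 CPM in the polyA+ library and 465 CPM in the ribo-depleted library at 4.8 hpf, against 177 and 395 CPM at 1 hpf. At 4.8 hpf, 61.9% of the FinTRIM reads were labeled in the polyA+ library (95% Wilson interval 60.5% to 63.2%), as were 55.7% in the ribo-depleted library (54.7% to 56.8%), beside 16.4% and 18.7% over all genes. At 1 hpf, 1.26% (0.815% to 1.93%) and 0.276% (0.187% to 0.409%) were labeled. Such intervals hold the counting error of the reads alone, and not the error of the NTR estimates. Unlabeled FinTRIM RNA was 194 and 206 CPM at 4.8 hpf, against 174 and 394 CPM at 1 hpf, so that the sum differed mainly in the ribo-depleted libraries. The 4.8 hpf sums include 52.0 and 33.7 CPM of ftr82, which had no read at 1 hpf. They also include 32.2 and 18.2 CPM of ftr83, against 5.46 and 4.82 CPM at 1 hpf. In the 4 members stored and not newly made, unlabeled RNA was 33.0 and 53.2 CPM at 4.8 hpf, against 75.9 and 188 CPM at 1 hpf, lower in both library types.

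Most of the labeled RNA came from a pair of genes. ftr82 and ftr83 together held 84.5% of the labeled FinTRIM reads in the polyA+ library at 4.8 hpf and 80.8% in the ribo-depleted library. Without them, 30.7% and 24.5% of the FinTRIM reads of the remaining members were labeled at 4.8 hpf. The high labeled percent of the family therefore rests largely on these 2 members. The summed reads of the other members were still above the value over all genes in both library types, which does not hold for each of them. Their labeled reads include 130 and 228 of ftr90, while ftr81, ftr97.1, ftr99 and ftr79 had NTRs of 0% to 0.54% at 4.8 hpf.

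**Figure D2:**
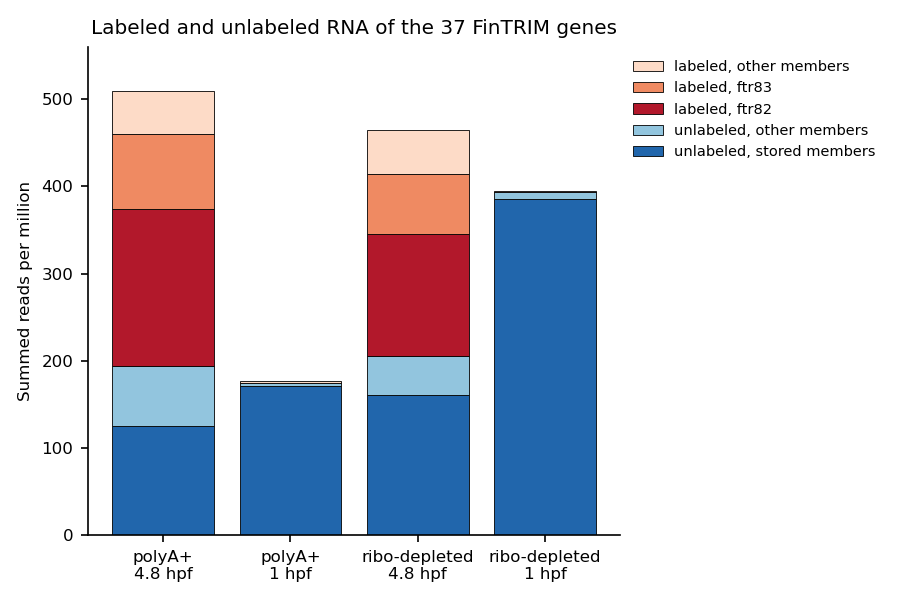
Summed CPM of the 37 FinTRIM genes in each library, split into unlabeled RNA (blue) and labeled RNA (red shades). The labeled part is 315 CPM (polyA+) and 259 CPM (ribo-depleted) at 4.8 hpf, against 2.22 and 1.09 CPM at 1 hpf.

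The stages were compared on total reads with edgeR's quasi-likelihood test, with library type as a covariate and Benjamini-Hochberg adjustment over the 16315 genes tested. With 1 library per stage and type, the only spread available was that of the stage difference between the library types, with 1 residual degree of freedom. The test shares this spread across genes, so a small p-value or standard error (SE) does not show that both types agreed for that gene. The SE was worked out from the log2 change and the F statistic of the test, so it adds no measure of spread to the p-value. ftr86, with log2 changes of 2.22 (polyA+) and -0.63 (ribo-depleted), had an SE of 0.48. ftr67, with -1.36 and -1.47, had an SE of 0.45. The sample labels number the samples of each stage as replicates 1 and 2, but the libraries carry no replicate number. Whether the library types came from separate pools of embryos is not stated. Any variation between batches of embryos therefore cannot be told apart from that between library types. Of the 37 members, 18 passed the filter on low counts. Of these, 9 were higher at 4.8 hpf (ftr82, ftr90, ftr83, ftr36, ftr76, ftr51, ftr14l, ftr85 and ftr23), beside 18.3% of all genes tested, and 3 were lower (ftr81, ftr99 and ftr67), beside 14.4%. Of the 9 that rose, 6 had no read at 1 hpf. These 6, and also ftr90 and ftr23 with few early reads, passed the filter through the 4.8 hpf libraries alone. Nothing about the family is therefore read from the count of members that rose. The other 6 members tested did not pass.

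ftr82 (ENSDARG00000055647) was the most abundant member at 4.8 hpf. It had 2370.75 reads in the polyA+ library and 3089 reads in the ribo-depleted library at 4.8 hpf, against 0 reads in both 1 hpf libraries. Against a floor of 3 reads per library, the limit that a count of 0 allows, its level in CPM was higher at 4.8 hpf. The difference was at least 701-fold in the polyA+ libraries and at least 1302-fold in the ribo-depleted libraries. ftr82 passed the stage test, which it entered through the 4.8 hpf libraries alone, so no p-value is given for it. Per length, it stood at 104 and 77.5 RPKM (CPM divided by the gene length in kilobases) at 4.8 hpf, above 96.7% and 95.2% of the genes listed in those libraries. The gene was therefore not detected in either early library at its depth and was near the top of both later ones.

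The NTR of ftr82 at 4.8 hpf was 77.6% (polyA+) and 80.6% (ribo-depleted). Among the 11080 and 12967 genes with at least 50 reads in those libraries, the median NTR was 8.41% and 8.96%, and the NTR of ftr82 lay above that of 99.1% and 97.3% of them. Before any NTR model, 6.45% (6.21% to 6.70%) and 5.13% (4.99% to 5.27%) of its covered T bases were read as C. Such T-to-C intervals treat each covered T base as independent, although many lie on the same read, so they are likely too narrow. The remaining 52.0 and 33.7 CPM of ftr82 were estimated as unlabeled at 4.8 hpf although the gene had no read at 1 hpf. The zygotic marker spaca4l, also without a read at 1 hpf, had an NTR of 74.4% and 80.9% at 4.8 hpf. For tbxta, with 0 and 3 reads at 1 hpf, it was 70.0% and 82.8%. The source of the unlabeled part was not tested.

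ftr83 (ENSDARG00000025403), which in zebrafish has been reported to act against viral infection, had the second most reads at 4.8 hpf. It had 1208 reads (polyA+) and 1562 reads (ribo-depleted) at 4.8 hpf, against 49.5 and 108.5 reads at 1 hpf. In CPM it was 21.7-fold and 18.2-fold higher at 4.8 hpf, and its fitted log2 change was 4.46 ± 0.53 (SE; edgeR, Benjamini-Hochberg adjusted p = 9.00e-16). Both later libraries were far above both early ones.

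Unlike ftr82, ftr83 was already present at 1 hpf, where none of its reads was estimated as labeled. Its NTR at 4.8 hpf was 72.8% and 79.3%, and 5.86% (5.54% to 6.20%) and 5.12% (4.93% to 5.32%) of its T bases were read as C, against 0.12% (0.02% to 0.70%) and 0.04% (0.01% to 0.17%) at 1 hpf. Unlabeled ftr83 RNA stood at 32.2 and 18.2 CPM at 4.8 hpf, against 5.46 and 4.82 CPM at 1 hpf, and why the unlabeled estimate was higher at the later stage was not tested. Per length, with a gene length of 5927 bases beside 2237 bases for ftr82, ftr83 stood at 20.0 and 14.8 RPKM at 4.8 hpf.

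ftr90 (ENSDARG00000097373) had 181 and 297 reads at 4.8 hpf, against 1 and 4 reads at 1 hpf. Its fitted log2 change was 6.93 (edgeR). ftr90 passed the stage test, which it entered through the 4.8 hpf libraries alone, so no p-value is given for it. Its NTR at 4.8 hpf was 71.6% and 76.8%. It was thus close to ftr83 in its labeled fraction at a lower level.

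The other newly made members without stored RNA were ftr36 (ENSDARG00000111722), ftr76 (ENSDARG00000076093) and ftr51 (ENSDARG00000029105), and none of these had a read at 1 hpf. ftr36 had 54.5 and 124 reads at 4.8 hpf and was, against the same floor, at least 16.1-fold and 52.3-fold higher than at 1 hpf. ftr76 had 56.7 and 68.2 reads at 4.8 hpf and was at least 16.8-fold and 28.7-fold higher, and ftr51 had 41.3 and 30 reads and was at least 12.2-fold and 12.6-fold higher. ftr36, ftr76 and ftr51 passed the stage test, which they entered through the 4.8 hpf libraries alone, so no p-values are given for them. Across the 5 members of this class the NTR at 4.8 hpf ranged over 51.6% to 77.6% in the polyA+ library and 76.7% to 85.2% in the ribo-depleted library, with ftr36 at the low end of both. The call of ftr51 was lost without the 1 hpf polyA+ library and without the 1 hpf ribo-depleted library.

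**Figure D3:**
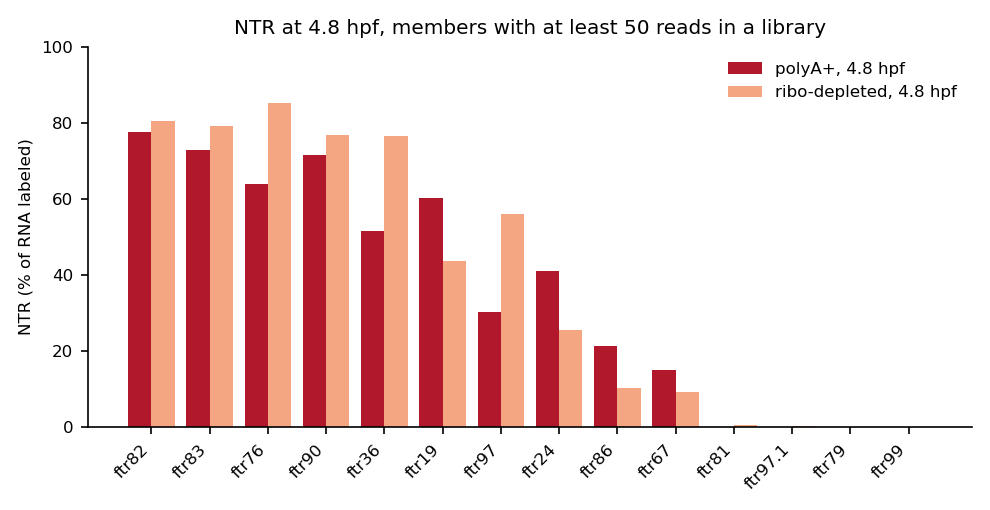
NTR at 4.8 hpf, as the percent of RNA labeled, of the 14 FinTRIM genes with at least 50 reads in a library, in the polyA+ (dark) and ribo-depleted (light) libraries. The highest values are 77.6% for ftr82 (polyA+) and 85.2% for ftr76 (ribo-depleted), and ftr99 and ftr79 lie at 0%.

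Among the members that were stored and newly made, ftr67 (ENSDARG00000098820), like ftr86 and ftr24, held mostly unlabeled RNA at 4.8 hpf. The NTR of ftr67 was the lowest of this class in both library types. This gene had 242 and 443 reads at 4.8 hpf, against 552 and 1552 reads at 1 hpf. In CPM it was 2.57-fold and 2.77-fold higher at 1 hpf. The fitted log2 change was -1.26 ± 0.45 (SE; edgeR, Benjamini-Hochberg adjusted p = 0.0190). Its NTR at 4.8 hpf was 14.9% and 9.27%, while 3.52 and 2.31 CPM of labeled RNA stood beside 20.2 and 22.6 CPM of unlabeled RNA, against 60.9 and 68.9 CPM unlabeled at 1 hpf. At 1 hpf it was the member with the most reads in the polyA+ library, with 34.5% of the FinTRIM reads.

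ftr24 (ENSDARG00000008396) had 190 and 453 reads at 4.8 hpf, against 141 and 798 reads at 1 hpf. Its total level did not pass the test (log2 change 0.04 ± 0.44 SE, edgeR with Benjamini-Hochberg adjusted p = 0.958), but its makeup differed between the stages. Unlabeled ftr24 RNA was 10.98 and 18.98 CPM at 4.8 hpf, against 15.3 and 35.4 CPM at 1 hpf, and labeled RNA was 7.60 and 6.47 CPM at 4.8 hpf, against 0.20 and 0.05 CPM at 1 hpf. The NTR at 4.8 hpf was 40.9% and 25.4%.

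ftr19 (ENSDARG00000094131) also held both labeled and unlabeled RNA at 4.8 hpf, at a lower level. It had 31.3 and 139.5 reads at 4.8 hpf, against 54.8 and 309 reads at 1 hpf, with an NTR at 4.8 hpf of 60.2% and 43.8%. Unlabeled ftr19 RNA was 1.22 and 4.40 CPM at 4.8 hpf, against 6.04 and 13.7 CPM at 1 hpf, and labeled RNA stood at 1.84 and 3.43 CPM at 4.8 hpf. Its total level did not pass the test (log2 change -0.72 ± 0.50 SE, edgeR with Benjamini-Hochberg adjusted p = 0.271).

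ftr86 (ENSDARG00000076839) differed in direction between the 2 library types. It had 362 and 858 reads at 4.8 hpf, against 69 and 1683.5 reads at 1 hpf. In CPM this is 35.4 at 4.8 hpf against 7.62 at 1 hpf in the polyA+ libraries, and 48.2 at 4.8 hpf against 74.8 at 1 hpf in the ribo-depleted libraries. The 1 hpf ribo-depleted level was 9.81 times the 1 hpf polyA+ level, above the ratio of 98.7% of genes with at least 10 reads in both and beside a median of 1.23, whereas at 4.8 hpf the ratio was 1.36. The fit across both types (log2 change 0.90 ± 0.48 SE, edgeR with Benjamini-Hochberg adjusted p = 0.147) therefore averages changes of opposite sign, and without the 1 hpf polyA+ library the estimate was -0.56. The NTR at 4.8 hpf was 21.3% and 10.1%.

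The other 4 stored members were found with almost no label at 4.8 hpf. ftr81 (ENSDARG00000109055) had 82.5 and 299.5 reads at 4.8 hpf, against 494 and 3128 reads at 1 hpf, and in CPM it was 6.75-fold and 8.26-fold higher at 1 hpf. The fitted log2 change was -2.75 ± 0.48 (SE; edgeR, Benjamini-Hochberg adjusted p = 1.35e-07). Both early libraries were above both later ones. Its NTR at 4.8 hpf was 0% and 0.54%, against 2.72% and 0.75% at 1 hpf, both low and with the lower values at the later stage. At 1 hpf it held 35.2% of the FinTRIM reads in the ribo-depleted library, the most of any member.

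ftr99 (ENSDARG00000035339) also fell. It had 9.50 and 90.5 reads at 4.8 hpf, against 27.5 and 529 reads at 1 hpf, with a fitted log2 change of -1.80 ± 0.54 (SE; edgeR, Benjamini-Hochberg adjusted p = 0.00378) and an NTR of 0% in all 4 libraries. Like ftr86, it was much higher in the ribo-depleted than in the polyA+ library at 1 hpf, with a ratio of 7.73. The call of ftr99 was lost in DESeq2, and those of ftr81, ftr99 and ftr67 were each lost when any 1 of the 4 libraries was left out, in fits that had to drop library type. Their log2 changes then ran over -3.36 to -2.15 for ftr81, -3.47 to -0.03 for ftr99 and -1.34 to -1.22 for ftr67, and the value of ftr99 nearest to 0 came without the 1 hpf ribo-depleted library.

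The remaining stored members did not pass the stage test. ftr97.1 (ENSDARG00000055436) had 20.3 and 26.3 CPM at 4.8 hpf, against 17.2 and 21.9 CPM at 1 hpf, with an NTR at 4.8 hpf of 0% and 0.30% (log2 change 0.41 ± 0.45 SE, edgeR with Benjamini-Hochberg adjusted p = 0.512). ftr79 (ENSDARG00000093972) had 3.72 and 5.16 CPM at 4.8 hpf, against 2.98 and 4.93 CPM at 1 hpf, with an NTR at 4.8 hpf of 0% in both libraries (log2 change 0.35 ± 0.51 SE, edgeR with Benjamini-Hochberg adjusted p = 0.638). For ftr97.1, 0.10% (0.04% to 0.26%) and 0.05% (0.03% to 0.10%) of T bases were read as C at 4.8 hpf, against 0.28% (0.14% to 0.54%) and 0.04% (0.02% to 0.09%) at 1 hpf, with overlapping intervals. Neither gene passed the test, which does not show that their levels were equal.

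**Figure D4:**
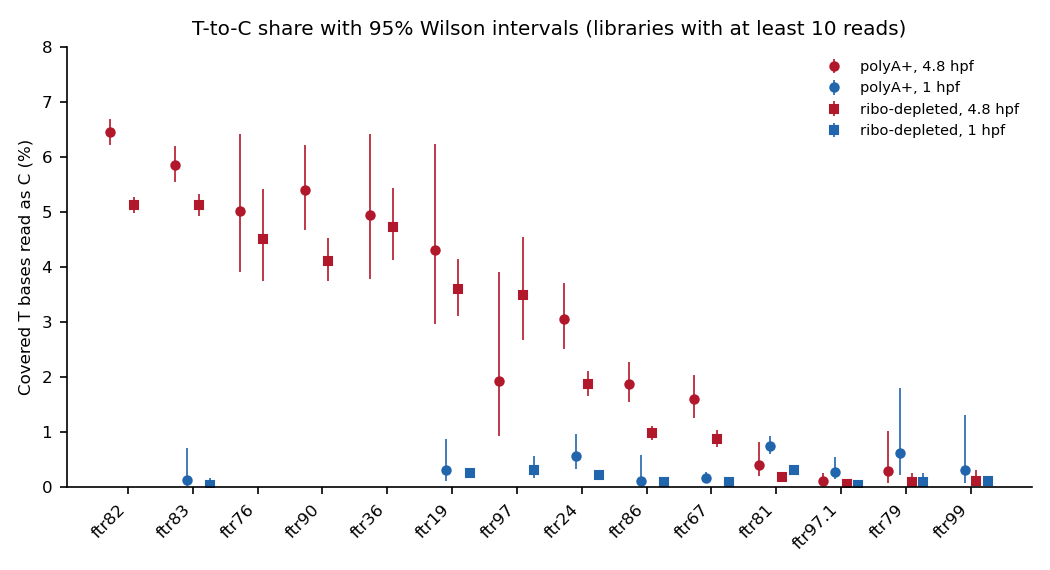
Percent of covered T bases read as C, with 95% Wilson intervals, of the 14 FinTRIM genes with at least 50 reads in a library, for each library in which the gene had at least 10 reads. ftr82 lies at 6.45% and 5.13% at 4.8 hpf, and the stored members ftr81, ftr97.1, ftr79 and ftr99 lie at 0.40% or below in every 4.8 hpf library shown.

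Over the 9 stored members, unlabeled RNA was lower at 4.8 hpf for 5 in the polyA+ libraries and for 6 in the ribo-depleted libraries, with median log2 changes in CPM of -0.48 and -0.90. Over all stored genes that still had unlabeled reads at 4.8 hpf (12965 and 12968), it was lower for 62.1% and 74.8%, with medians of -0.37 and -0.68. These values are given without a test. Within the stored members, the log2 change of unlabeled RNA ran from -2.72 and -3.04 for ftr81 to 2.56 and 1.92 for ftr83.

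**Figure D5:**
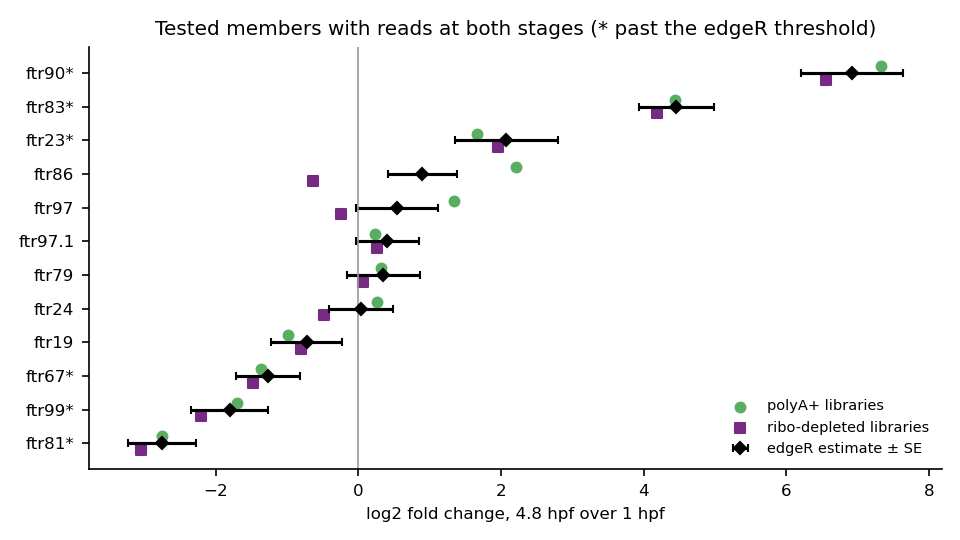
Log2 fold change, 4.8 hpf over 1 hpf, of the 12 tested FinTRIM genes with reads at both stages, from CPM in the polyA+ libraries (circles) and the ribo-depleted libraries (squares), with the edgeR estimate and its SE (diamonds). ftr86 has 2.22 (polyA+) and -0.63 (ribo-depleted), while ftr83 has 4.44 and 4.19 and ftr81 has -2.75 and -3.05.

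The other 12 members detected had reads but met neither minimum in both library types, and their largest read counts ran from 11.7 to 72 reads. Of these, 8 (ftr02, ftr14l, ftr23, ftr53, ftr73, ftr85, ftr91 and ftr97) had at least 10 labeled reads in the ribo-depleted 4.8 hpf library alone, with an NTR there of 56.0% to 99.6%. Their counts in the polyA+ library of the same stage were only 5.50 to 20 reads. ftr04, ftr23, ftr70, ftr90.1 and ftr97 had at least 10 unlabeled reads in the ribo-depleted 1 hpf library alone.

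ftr14l (ENSDARG00000078254), ftr85 (ENSDARG00000034707) and ftr23 (ENSDARG00000067985) were the members among these that passed the stage test. ftr14l had 10.5 and 22.3 reads at 4.8 hpf and ftr85 had 8 and 13 reads, and neither had a read at 1 hpf. Against the floor of 3 reads, ftr14l was at least 3.10-fold and 9.41-fold higher and ftr85 was at least 2.37-fold and 5.48-fold higher. Both entered the stage test through the 4.8 hpf libraries alone, so no p-values are given for them. ftr23 had 10.75 and 37.03 reads at 4.8 hpf, against 3 and 12 reads at 1 hpf, with a log2 change of 2.08 (edgeR). With so few early reads, ftr23 also entered the stage test through the 4.8 hpf libraries alone, so no p-value is given for it. The calls of ftr14l, ftr85 and ftr23 were lost in DESeq2. That of ftr23 was also lost without any 1 of the 4 libraries, when its log2 change was 1.46 to 2.39, and with library totals in place of TMM. ftr14l was not called without the 1 hpf polyA+ library or the 1 hpf ribo-depleted library. It did not pass the filter without the 4.8 hpf ribo-depleted library. ftr85 was not called without the 1 hpf polyA+ library and did not pass the filter when any of the other libraries was left out.

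ftr97 (ENSDARG00000095125) was the only one of these members with at least 50 reads in a library. It had 20 and 48 reads at 4.8 hpf, against 7 and 72 reads at 1 hpf, and an NTR at 4.8 hpf of 30.3% and 56.0% (log2 change 0.54 ± 0.58 SE, edgeR with Benjamini-Hochberg adjusted p = 0.497). It was higher at 4.8 hpf in the polyA+ libraries and lower in the ribo-depleted libraries (log2 change -0.25 in CPM), where TMM scaling turned the change to 0.09. Without the 1 hpf polyA+ library its log2 change was -0.17.

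The 11 silent members were ftr06, ftr14, ftr25, ftr29, ftr50, ftr52p, ftr55, ftr57, ftr64, ftr87 and ftr98. The largest read count of each in any library ran from 0.333 to 8.67, and the lowest of the 26 detected members reached 11.7, so the minimum of 10 reads falls in a narrow gap. With 50 reads as the minimum 14 members were detected, and with 1 read 36 were. These counts limit what could be seen at this depth and do not show that the genes are untranscribed. As an ftr gene without any read may be missing from the members, 11 is no count of the silent genes of the whole family.

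Fractional read counts, which arise where 1 read is divided among several genes, limit how far single members can be told apart. The read counts of 11 of the 14 members with at least 50 reads (78.6%) were not whole numbers in at least 1 library, beside 47.0% of all genes with that many reads. Which genes shared the reads was not tested. Of the 12 members that passed the stage test, ftr67 and ftr85 alone had whole counts (within 1e-06) wherever they were listed. ftr82 had a fractional count in the polyA+ library and a whole count in the ribo-depleted library, with NTRs of 77.6% and 80.6%. Among the members with whole counts only, the labeled percent at 4.8 hpf was 19.1% in the polyA+ library, where ftr82 and ftr83 drop out, and 63.7% in the ribo-depleted library, where they stay.

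Many members lie in runs of ftr genes, which does not mean that they are adjacent. In RefSeq's table for the assembly GRCz12tu, which is not the build of the files and was used for names and gene order only, 29 of the 37 members were matched by symbol. Of these, 19 lay in a run of at least 2 ftr genes with no more than 10 other genes between neighbours, and 10 lay alone. The other ftr genes of a run need not be members. ftr82 and ftr83 were in the same run, both newly made, with ftr83 also stored. ftr76, ftr72, ftr73 and ftr91 shared a run, and their reads came mainly from 4.8 hpf. ftr19, ftr23 and ftr24 shared another run, with ftr19 and ftr24 stored and newly made, and ftr67 was in a run with the silent ftr87. Every run with at least 2 members held members of different classes. The symbols ftr36 and ftr50 belong to more than 1 gene ID, so their places in the gene order are uncertain.

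The related genes give a setting for these counts. Over all genes, 31.4% were newly made and 50.4% stored, and of those tested 18.3% were higher and 14.4% lower at 4.8 hpf. Of 51 other TRIM genes (named trim and a digit), 18 were newly made (35.3%) and 38 stored (74.5%). Of the 39 tested, 4 were higher and 7 lower at 4.8 hpf, with a median log2 change of -0.34. Of 19 bloodthirsty-related TRIM genes (btr), another family of fish TRIM genes, 8 were newly made (42.1%) and 13 stored (68.4%). Of the 16 tested, 3 were higher and 1 lower, with a median of -0.42. The 18 tested FinTRIM genes had a median log2 change of 1.49, or 1.45 with the 6 genes without early reads at their bound, beside 0.10 over all genes tested. As these 6, ftr90 and ftr23 entered through the later stage alone, this median is no measure of the whole family. The median over all genes shifted by -0.16 with library totals in place of TMM.

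Of 43 interferon pathway and antiviral genes in the table, 10 were newly made (23.3%, beside 31.4% of all genes) and 21 stored (48.8%, beside 50.4%). Of the 28 tested, 6 were higher and 9 lower at 4.8 hpf, with a median log2 change of -0.32. isg15, a ubiquitin-like modifier induced by interferon, had 783 and 1201 reads at 4.8 hpf, against 1 and 0 reads at 1 hpf, with an NTR at 4.8 hpf of 64.2% and 66.2%. The others that rose were ifit8, mxa, tlr3, eif2ak2 and rela. Of those that rose, isg15, mxa, tlr3 and eif2ak2 entered the test through the 4.8 hpf libraries alone, so nothing is read from their count. The interferon gene ifnphi1 had 9 and 18 reads at 4.8 hpf, against 0 and 13 reads at 1 hpf (log2 change 1.78, edgeR), and did not pass the test. As ifnphi1 also entered through the 4.8 hpf libraries alone, no p-value is given for it. Among those that fell were stat1a and tyk2, which carry the interferon signal inside the cell, and mavs and traf3, which act downstream of the sensors of viral RNA.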

How the data were processed

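The authors used cutadapt for trimming, STAR for alignment to GRCz11 and GRAND-SLAM for the estimates, each library on its own. They deposited estimated counts of reads, T-to-C conversions and covered T bases for each gene in each library, none normalized, with the gene length. The NTR was deposited as a fraction and is printed here as a percent. A gene not listed for a library was taken as 0 reads. The libraries were identified by stage and by instrument, which the methods tie to the library type. Members and lists were chosen with earlier results of these data known.

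CPM used all reads of a library, and RPKM the deposited gene length. Read counts were rounded and compared with edgeR 4.0.16 in R 4.3.3 (TMM, filterByExpr, library type as covariate, Benjamini-Hochberg threshold 0.05). A run on simulated data held no difference between library types, so it cannot show how the test handles such differences. Labeled percents and T-to-C shares have 95% Wilson intervals and no test. Members with at least 50 reads in a library, and those newly made, stored or past the test, are named. The alternatives were DESeq2 1.42.0, other scaling, filters, minimums, weights and library sets. Other steps used Python 3.11.15, numpy 2.4.6 and pandas 2.3.3. Depth was 9058807 to 22521675 reads, so the NTR of genes with few reads is imprecise. No promoter or protein sequences of the members were used here.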

Additional observations from a re-analysis of the deposited data

Results flagged for a closer look

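ftr86, ftr24 and ftr97 moved in opposite directions between the stages in the 2 library types, each with at least 10 reads in a library of both types. The log2 changes in CPM, 4.8 hpf over 1 hpf, were 2.22 (polyA+) and -0.63 (ribo-depleted) for ftr86, 0.26 and -0.48 for ftr24, and 1.34 and -0.25 for ftr97. The difference between the library types was not tested, since each type had 1 library per stage. With TMM scaling the ribo-depleted change of ftr97 was 0.09.

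ftr89, which the deposited table does not name and an identifier list names as an ftr gene, lies outside the 37 members. It had 25.1 reads (polyA+) and 39.2 reads (ribo-depleted) at 4.8 hpf, against 0 reads in both 1 hpf libraries, with an NTR at 4.8 hpf of 70.3% and 81.3%.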

How the results depend on the processing

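No paired analysis was possible because the deposited columns carry no replicate number, and the libraries were matched across stages by library type alone. Between stages edgeR called 12 of the 18 members tested, and DESeq2 called 8 of 25. With library totals 11 of 18 were called, without library type 9 of 18 and without a filter 17 of 36. The number higher moved to 14 without a filter, which added ftr02, ftr53, ftr72, ftr73 and ftr91, and the number lower to 1 without library type. Over all genes, edgeR called 5326 of 16315 tested, and DESeq2 called 3682 of 17746. With library totals 4998 of 16315 were called, without library type 1977 of 16315 and without a filter 5712 of 25023. Leaving out each library in turn gave 5 to 8 calls, 5 to 8 higher and 0 lower. In these fits library type was dropped and the lone library of a stage was assumed to vary like the others, and 952 to 1669 genes were called over the table. ftr36, ftr76, ftr82, ftr83 and ftr90 were called in each. Of the 12 members with whole counts wherever they were listed, only ftr67, ftr79, ftr85 and ftr97 had passed the filter and been tested. Of these, 2 were called (ftr67 and ftr85), an alternative chosen after seeing the data. The matching share over all genes was not counted. The change of ftr24 turned to -0.12 with library totals, -0.00090 without library type, and ran over -0.41 to 0.49 with each library left out in turn. Over the same fits that of ftr86 ran over -0.56 to 2.44 and that of ftr97 over -0.17 to 1.57, with the negative values without the 1 hpf polyA+ library.

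With a minimum of 50 reads 14 members were detected (37.8%, beside 55.2% of all genes). Newly made members numbered 16 with a minimum of 5 labeled reads (43.2%, beside 38.1%) and 18 in the ribo-depleted library alone (48.6%, beside 40.8%), so that the share of members was above that of all genes there and below it at the minimum of 10 in both types. Stored members numbered 14 in the ribo-depleted library alone (37.8%, beside 61.3%). The labeled percent at 4.8 hpf, polyA+ first and then ribo-depleted, was 48.7% and 41.0% without ftr82, 60.3% and 52.7% with reads divided by gene length, 19.1% and 63.7% in members with whole counts, and 30.7% and 24.5% without ftr82 and ftr83, the last chosen after seeing the data. Genes with few reads and shared reads limit these counts.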

Other observations

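The identifier list names 32 ftr genes that the deposited table leaves without an ftr name. Of these, 3 had at least 10 reads in a library (ftr80, ftr89 and ftr93), 1 was newly made in both library types (ftr89) and 0 were stored in both. ftr80, in the same run as ftr81, had fewer than 10 reads in each 4.8 hpf library, against 44 and 22.7 reads at 1 hpf. At 1 hpf its polyA+ NTR was 0.95% and its ribo-depleted NTR was 80.3%. Through the latter NTR alone, ftr80 fell below the minimum of 10 unlabeled reads and was not counted as stored. Why the NTRs differ was not tested.

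Of the 10 newly made members, 6 had the higher NTR at 4.8 hpf in the ribo-depleted library (ftr36, ftr51, ftr76, ftr82, ftr83 and ftr90). The other 4 (ftr19, ftr24, ftr67 and ftr86), all of them also stored, had the higher NTR in the polyA+ library. This split was noticed in the data and was not tested.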
